A study of Mus musculus with 11 samples.

Results

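The genes described are 9 secreted or membrane-bound proteases of the extracellular matrix: the matrix metalloproteinases Mmp2, Mmp3, Mmp8, Mmp10, Mmp11 and Mmp14 and the aggrecanase-type proteases Adamts1, Adamts4 and Adamts5. They were taken as a list of names, 9 of the 23420 gene symbols in the count table, and 8 of them had enough counts to be tested. The tissue was the fibrocartilage that covers the condyle of the mouse jaw joint, from C57BL/6 females. All mice were ovariectomized at 6 weeks of age and carried a pellet for 1 week until 7 weeks. The pellet held placebo (Plb) or 17β-estradiol (E2, 0.01 mg, made to last 60 days). The genotype was wild type (WT) or ERalphaKO (KO), a loss of estrogen receptor alpha for which the labels give no allele. The WT Plb group had 2 libraries and the WT E2, KO Plb and KO E2 groups had 3 each. Whether each library came from a different animal is not given in the sources used here, so p-values measure the spread between libraries.

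Matrix metalloproteinases are zinc enzymes made as inactive proforms, and they cut collagens, proteoglycans and other matrix proteins once the propeptide is removed. The ADAMTS aggrecanases cut the core protein of aggrecan, the proteoglycan that gives cartilage its resistance to compression. Tissue inhibitors of metalloproteinases (TIMPs) block matrix metalloproteinases, and among them TIMP3 inhibits the ADAMTS aggrecanases best. The TIMP2 protein also helps membrane-bound MMP14 to activate pro-MMP2. In cartilage these enzymes are known for growth remodelling and for matrix loss in joint disease. The data hold mRNA only, so proenzyme, active enzyme and inhibitor-bound enzyme were not measured.

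No member changed with estradiol at the threshold used, and differences between genotypes were called for Mmp2 and Adamts1. A gene was called where edgeR's quasi-likelihood test gave an adjusted p under 0.05 over the 14531 genes tested. For estradiol against placebo, 0 of 8 members were called in WT, where 1.55% of all genes were called, and 0 of 8 in KO, where 2.73% were called. At an unadjusted p under 0.05 the members numbered 3 and 1, against 14% and 16.5% of all genes. A fit with the replicate number as a block treats same-numbered libraries as paired, which the labels do not state. That fit called 629 genes for estradiol in KO in place of 396 and 301 interaction genes in place of 167. In either, 0 members were called. The difference between the 2 estradiol effects (the interaction, WT effect minus KO effect) called 0 of 8 members against 1.15% of all genes. At an unadjusted p under 0.05 it held 2 members, against 11.6% of all genes. KO against WT under placebo called 0 of 8 members against 0.00688% of all genes. Unadjusted, 1 member had a p under 0.05, against 9.21% of all genes. KO against WT under estradiol called 1 of 8 members, Mmp2, against 11.5% of all genes. Unadjusted, 4 members had a p under 0.05, against 26.9% of all genes. KO against WT averaged over both agents called 2 of 8 members, Mmp2 and Adamts1, against 7.36% of all genes. Unadjusted, 3 members had a p under 0.05, against 27.2% of all genes. Shares of 8 members rest on too few genes to be set apart from those backgrounds. DESeq2, another count model, called 2 members for estradiol in WT (1 higher and 1 lower) among 656 genes and 1 for estradiol in KO among 952. It called 2 members for KO against WT under estradiol, where the alternative fits called 867 to 2225 genes.

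Libraries held 15.7 to 25.5 M counts, so 3 counts in a library correspond to 0.118 to 0.204 CPM (counts per M of the TMM-scaled library total), and such floors cover counting error only. Esr1, the gene for estrogen receptor alpha, was at 2.55 to 4.86 CPM in KO and 6.43 to 13.4 CPM in WT libraries. Summed markers of cartilage cells (7 genes) stood at 7440 to 21330 CPM, of which Col2a1 held 3706 to 14720. Of the 7 fibrous layer markers, Col1a1, which osteoblasts also express, made up 99.1% to 99.6% of the sum, and the other 6 summed to 279 to 674 CPM. WT Plb 2 stood apart by the ribosomal precursor Rn45s, at 16.0% of counts against 1.83% to 3.13% elsewhere. Summed skeletal muscle markers ran from 9.32 CPM in KO E2 2 to 1201 CPM in WT Plb 2. A second set of libraries stood apart by genes of the circadian clock, which run in daily cycles in most tissues. WT Plb 1, KO Plb 1 and KO Plb 2 had Dbp at 301 to 314 CPM and Arntl at 6.94 to 8.67 CPM, while the other 8 libraries had 4.12 to 49.0 and 44.2 to 69.8 CPM. These 3 are all placebo libraries, 3 of 5, and 0 of the 6 estradiol libraries are among them. The clock genes were looked at after the values were seen, and the time of day of collection is not given in the sources used here. Of 11 clock genes viewed, the 8 that split the libraries most clearly were put into an index. Clock, which also split them (45.2 to 50 against 65.5 to 100 CPM), and Per1 and Cry1, which did not, were left out. The 396 genes called for estradiol in KO numbered 19 with the index as a covariate and 1 without the 3 libraries. Without them WT Plb and KO Plb each hold 1 library, assumed to vary like the other groups, and the smaller number of libraries also lowers the number of calls that can be made. The estradiol differences of each tested member are given below also in both of these fits. Some genes are described below as apart between the 3 libraries and the other 8. How many of all genes split in that way was not counted.

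Per kb of exon, the scale on which genes can be compared, Mmp2 and Mmp14 stood far above the other members. Of 42 Mmp and Adamts genes in the table, Mmp13, the main collagenase of mouse cartilage and bone, was highest at a mean of 1083 CPM per kb over the 11 libraries. Mmp9, the gelatinase abundant in osteoclasts, followed at 924 CPM per kb. Next came Mmp2 at 718 and Mmp14 at 212 CPM per kb. Those 4 genes were the only ones of the 42 above 100 CPM per kb. The next members were Mmp3 at 9.92 and Mmp8 at 9.10 CPM per kb. Adamts4 (7.40), Mmp11 (6.23), Adamts1 (5.90) and Adamts5 (4.31 CPM per kb) lay close together, and Mmp10 was at 0.153 CPM per kb. Exon lengths came from the GENCODE vM21 annotation, since the one used for counting is not given in the sources used here.

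**Figure D1:**
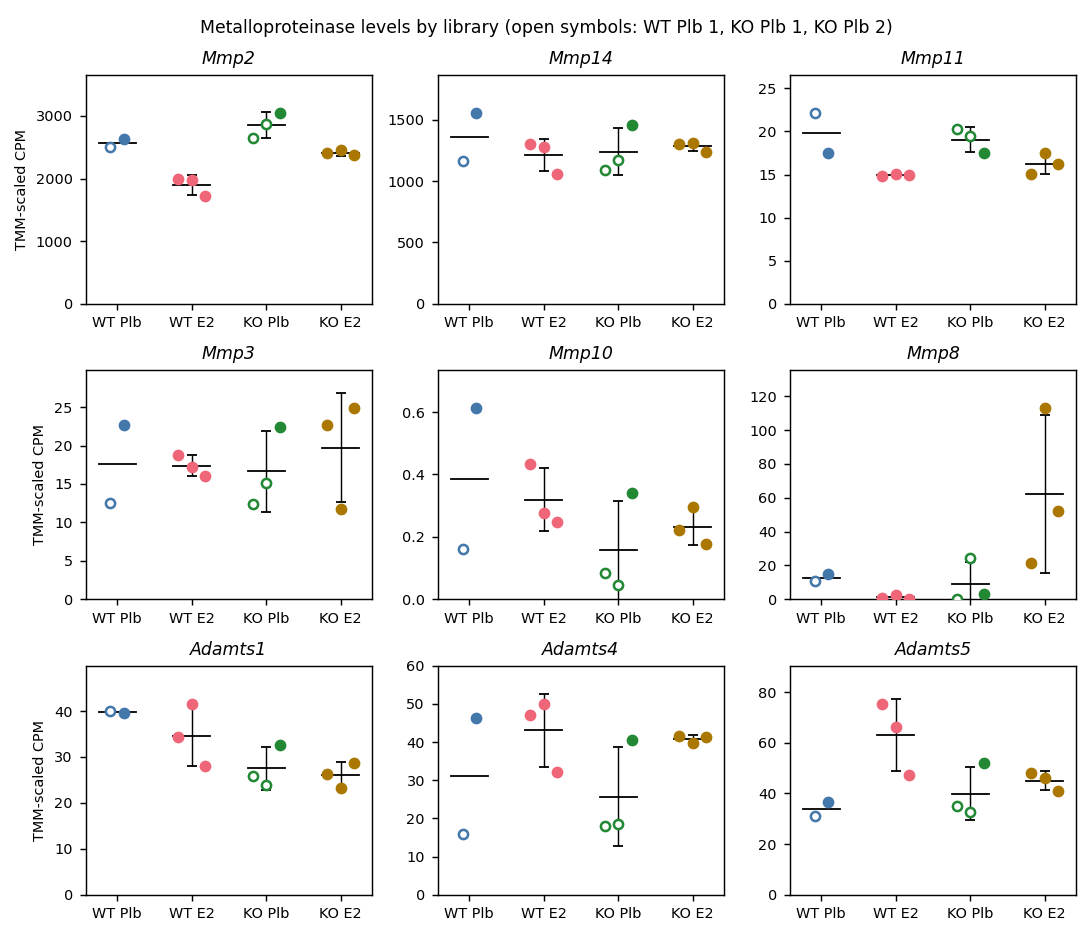
TMM-scaled CPM of the 9 proteases in each library, by group; each symbol is 1 library, horizontal lines are group means, and vertical bars are ± SD for the groups of 3, ending at 0 where they would pass below it. Open symbols mark WT Plb 1, KO Plb 1 and KO Plb 2. Mmp2 was lowest in the WT E2 libraries, Mmp8 was highest in the KO E2 libraries, and Adamts4 was lowest in the 3 open symbols.

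Mmp2 encodes the gelatinase of connective tissue fibroblasts. Its groups, ordered by their means, did not overlap between neighbours, but how many of all genes do the same was not counted. The level of Mmp2 was 2510 and 2626 CPM in WT Plb, 1998, 1983 and 1720 CPM in WT E2, 2646, 2870 and 3052 CPM in KO Plb and 2401, 2455 and 2369 CPM in KO E2. The WT E2 libraries were thus lowest, then KO E2, WT Plb and KO Plb, although the step from WT Plb (highest 2626) to KO Plb (lowest 2646) was small. Under estradiol Mmp2 rose in KO against WT, by a log2 difference of 0.34 (SE 0.09, adjusted p = 0.0296, edgeR), or 1.27-fold. Averaged over both agents it was 0.25 higher in KO (SE 0.07, adjusted p = 0.0462). Estradiol against placebo gave -0.43 in WT (SE 0.10, adjusted p = 0.0527), just short of the threshold, and -0.25 in KO (SE 0.09, adjusted p = 0.183). The difference between those estradiol effects was -0.19, with a 95% interval of -0.48 to 0.10, so the data do not show that Mmp2 responded differently in KO. The estradiol differences were -0.52 in WT (adjusted p = 0.0672) and -0.33 in KO (adjusted p = 0.258) with the clock index as a covariate, and -0.47 (adjusted p = 0.190) and -0.34 (adjusted p = 0.552) without the 3 clock libraries.

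The Mmp2 calls were close to the threshold. The call under estradiol was kept in 12 of 20 alternatives, with a log2 difference of 0.27 to 0.37 throughout. It was lost without any 1 of WT E2 1, 2 or 3, KO E2 1, 2 or 3 or KO Plb 2 (adjusted p = 0.0502 to 0.0836), and without the 3 clock libraries (0.0750). It was 0.37 with the clock index as a covariate (adjusted p = 0.0236). The call averaged over both agents was kept in 6 of 20 alternatives and was lost when any 1 of the 11 libraries was left out (adjusted p = 0.0558 to 0.104).

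Timp2, the inhibitor that takes part in MMP2 activation, had the pattern most like Mmp2 of 11043 genes compared. Likeness was the root mean square difference of standardised log2 CPM over the 11 libraries, which was 0.186 for Timp2 against a median of 1.38 over all genes. The next gene was Fam167a at 0.226. Timp2 stood at 1797 and 1756 CPM in WT Plb, 1347, 1326 and 1190 in WT E2, 1930, 2121 and 2092 in KO Plb and 1597, 1755 and 1572 in KO E2. Mmp2 spanned 1.77-fold over the libraries and Timp2 1.78-fold, while the ratio of these genes spanned 1.11-fold. Timp2 fell with estradiol in WT by 0.46 (SE 0.10, adjusted p = 0.0319). It rose in KO against WT under estradiol by 0.35 (SE 0.09, adjusted p = 0.0218). The first of these calls was kept in 9 of 20 alternatives and the second in 17. The clock index as a covariate (-0.47, adjusted p = 0.0942) and the removal of the 3 clock libraries (-0.45, adjusted p = 0.199) both ended the first. Timp2 was named after this search over all genes, so its likeness to Mmp2 is a description.

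Markers of osteoclasts and macrophages moved with genotype in the direction opposite to Mmp2. Osteoclast markers summed to 8581 to 9540 CPM in WT E2, 5421 to 6208 in KO E2, 5923 to 7067 in WT Plb and 5698 to 6421 in KO Plb, and 6 of 7 were called lower in KO under estradiol. Macrophage markers were called lower in 7 of 8 there. The 7 fibrous layer markers, expressed by the fibroblast-like cells in which Mmp2 is usually found, gave 0 calls in that comparison. Without Col1a1 the other 6 summed to 345 to 503 CPM in WT E2 and 415 to 446 in KO E2. The part of these cells in the Mmp2 difference was not tested. In RNA from whole tissue, fewer cells of a type and less RNA per cell cannot be told apart.

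Mmp14 encodes the membrane-bound enzyme that activates pro-MMP2 and cuts fibrillar collagen. It was at 1161 and 1557 CPM in WT Plb, 1300, 1277 and 1058 in WT E2, 1092, 1171 and 1456 in KO Plb and 1299, 1310 and 1239 in KO E2. All neighbouring groups overlapped, and the 2 WT Plb libraries were further apart than most groups. Estradiol against placebo gave -0.17 in WT (95% interval -0.49 to 0.16) and 0.05 in KO (-0.24 to 0.34). Both moved with the clock libraries: the values were -0.43 in WT (adjusted p = 0.136) and -0.22 in KO (adjusted p = 0.481) with the clock index as a covariate, and -0.36 (adjusted p = 0.352) and -0.18 (adjusted p = 0.911) without the 3 libraries. KO against WT gave -0.13 under placebo (-0.46 to 0.19) and 0.08 under estradiol (-0.21 to 0.37). None of these was called, and at their widest the intervals reach -0.49, so moderate changes cannot be set aside at this number of libraries. The ratio of Mmp14 to Mmp2 spanned 1.59-fold and was highest in the WT E2 libraries, where Mmp2 was lowest. The genes most like Mmp14 were Cacna1g (0.357) and 6030419C18Rik (0.451).

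**Figure D2:**
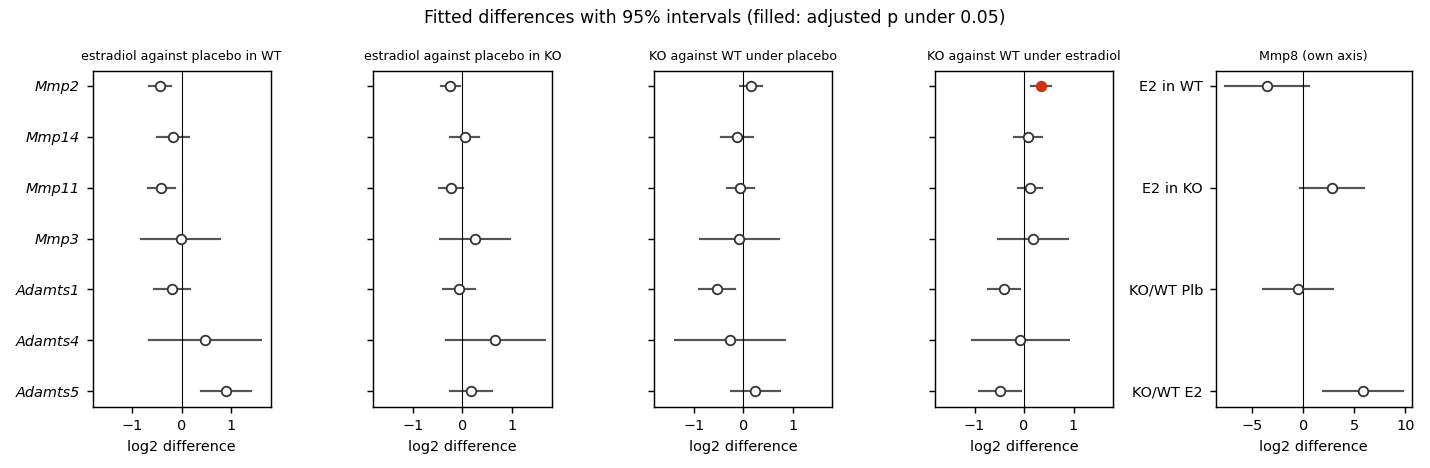
Fitted log2 differences of the 8 tested members in 4 comparisons, with Mmp8 on an axis of its own; circles are estimates, lines are 95% intervals, and a filled circle marks an adjusted p under 0.05. The Mmp2 difference between KO and WT under estradiol is the one filled circle, and the Mmp8 intervals are several log2 units wide.

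Mmp8, the collagenase stored in neutrophil granules, had the widest range of the members and followed neutrophil markers. It stood at 10.5 and 15.1 CPM in WT Plb, 0.474, 2.71 and 0.165 in WT E2, 0, 24.1 and 3.23 in KO Plb and 21.4, 113 and 51.9 in KO E2. The counts behind these ran from 0 in KO Plb 1, which allows a level of up to 0.127 CPM, to 1903 in KO E2 2. All 3 KO E2 libraries lay above all 3 WT E2 libraries, and the KO Plb libraries ran from the lowest value of all to above KO E2 1. How many of all genes separate the estradiol libraries by genotype was not counted. KO against WT under estradiol gave a log2 difference of 5.85 (SE 1.66, adjusted p = 0.0668, edgeR), 57.5-fold and not called. Estradiol against placebo gave -3.56 in WT (SE 1.75, adjusted p = 0.435) and 2.78 in KO (SE 1.33, adjusted p = 0.357). These were -3.17 and 3.31 with the clock index as a covariate (adjusted p = 0.594 and 0.627) and -3.82 and 4.27 without the 3 clock libraries (adjusted p = 0.373 and 0.545). The interaction was -6.35 (SE 2.19, unadjusted p = 0.0220, adjusted p = 0.293). The difference under estradiol was called by DESeq2 (adjusted p = 0.00635), with the replicate block (0.0377), without KO Plb 1 (0.0376), without KO Plb 2 (0.0377) and without the 3 clock libraries (0.0429).

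The 15 neutrophil markers, a list that leaves out Mmp8 and Mmp9, summed to 216 and 493 CPM in WT Plb, 8.64, 42.3 and 10.6 in WT E2, 1.61, 742 and 168 in KO Plb and 1288, 4638 and 1595 in KO E2. The library with no Mmp8 count was the one with the lowest marker sum, and KO E2 2 was highest in both. S100a8 and S100a9, the calprotectin subunits abundant in neutrophils, were the genes most like Mmp8 (0.161 and 0.166). Of the 14 markers tested, 11 were called higher in KO against WT under estradiol, among them S100a8 (log2 difference 6.78, adjusted p = 0.0470), Lcn2 (6.60, adjusted p = 0.0403) and Cxcr2 (5.36, adjusted p = 0.0316), which had counts in every WT E2 library. Erythroid markers, of which 3 were tested and 0 called there, summed to 22.3 to 22.8 CPM in WT E2 and 16.9 to 192 CPM in KO E2. None of the 15 was at 0 in every library. The part of neutrophil or other blood cell number in the Mmp8 values was not tested.

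**Figure D3:**
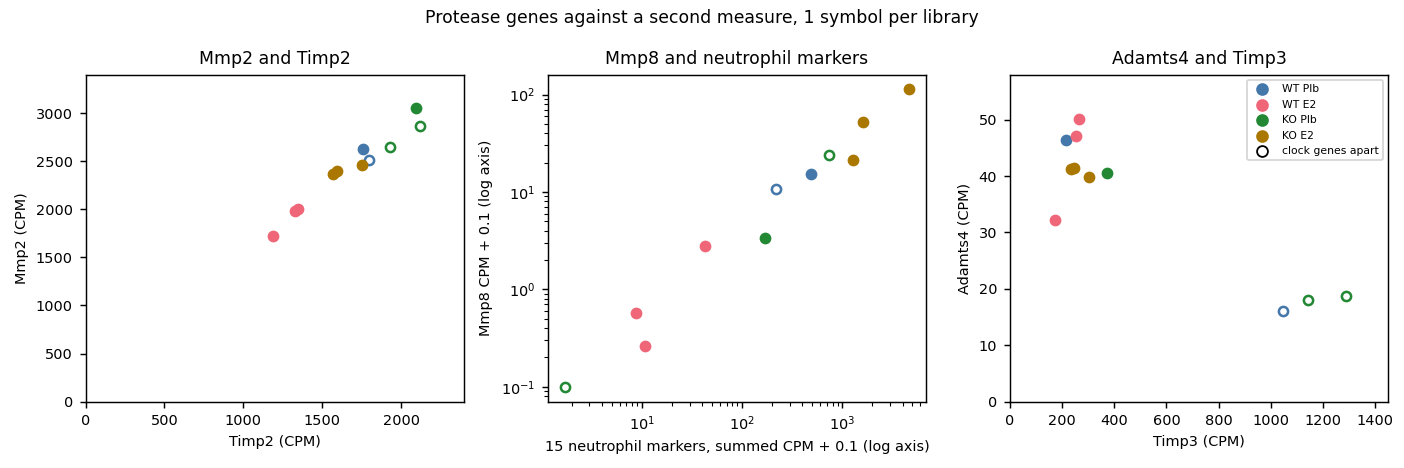
Mmp2 against Timp2, Mmp8 against 15 summed neutrophil markers (log axes, 0.1 CPM added to both) and Adamts4 against Timp3, in TMM-scaled CPM with 1 symbol per library. Mmp2 and Timp2 lie along 1 line, Mmp8 climbs with the neutrophil sum, and WT Plb 1, KO Plb 1 and KO Plb 2 (open symbols) lie apart with low Adamts4 and high Timp3.

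Mmp3 and Mmp10, the stromelysins 1 and 2, are neighbouring genes on mouse chromosome 9, and their enzymes cut proteoglycans and activate procollagenases. Both are textbook targets of AP-1, the Fos and Jun transcription factors. RefSeq promoters (250 bases before to 50 after the start, GRCm38.p6) were matched for 6 of the 9 members, not for Mmp2, Adamts4 and Adamts5. The AP-1 letters TGANTCA, searched on both strands, were in 2 of the 6, Mmp3 and Mmp10, and in 7.79% of 32544 promoters. TATAAA, also searched on both strands, was in 4 of the 6 and in 13.6% of all. In Mmp8 that match was on the minus strand, beginning at base -3 from the start. The estrogen response element in its consensus form (GGTCA and TGACC separated by 3 bases) was in 0 of the 6 and in 0.0707% of all. A match of letters is a description and not a measured site. The 2 stretches that end just before the start are shown because the same AP-1 and TATAAA letters stand in both genes while their levels differ, and capitals mark those letters.
Mmp3, chr9:7445726-7445821, plus strand: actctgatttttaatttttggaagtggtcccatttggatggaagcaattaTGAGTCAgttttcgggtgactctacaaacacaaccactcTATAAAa
Mmp10, chr9:7502229-7502341, plus strand: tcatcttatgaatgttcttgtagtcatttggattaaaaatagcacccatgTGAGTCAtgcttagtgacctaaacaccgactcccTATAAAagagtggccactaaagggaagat
The AP-1 match begins 46 bases before the start in Mmp3 and 63 bases before it in Mmp10. TATAAA begins at base -7 from the start in Mmp3 and at base -29 in Mmp10, so both matches lie nearer the start in Mmp3.

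Despite that likeness in letters, Mmp3 was 64.7-fold above Mmp10 in mean CPM per kb. Mmp3 stood at 12.5 and 22.7 CPM in WT Plb, 18.8, 17.2 and 16.0 in WT E2, 12.3, 15.1 and 22.5 in KO Plb and 22.7, 11.7 and 24.9 in KO E2. All groups overlapped, and the libraries lay close together only in WT E2. Its estradiol difference was -0.02 in WT (95% interval -0.81 to 0.78) and 0.25 in KO (-0.46 to 0.96). It was -0.53 in WT (adjusted p = 0.467) and -0.30 in KO (adjusted p = 0.763) with the clock index as a covariate, and -0.39 (adjusted p = 0.738) and -0.18 (adjusted p = 0.976) without the 3 clock libraries. Mmp10 had 3 and 9 counts in WT Plb, 11, 6 and 6 in WT E2, 2, 1 and 8 in KO Plb and 4, 5 and 4 in KO E2. At these counts it did not pass the filter, and a difference between groups was not detectable at this depth. At these low counts Mmp10 was also apart between the 3 clock libraries (0.0469 to 0.162 CPM) and the other 8 (0.179 to 0.612). Nt5dc3 (0.376) and Fam98a (0.408) were the genes most like Mmp3.

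Of 12 regulators of protease transcription listed (AP-1 subunits, cytokines, Nfkb1 and Runx2), 11 were tested. The AP-1 subunit gene Junb fell with estradiol in KO, by 0.50 (SE 0.12, adjusted p = 0.0435), from 57.1 to 74.5 CPM in KO Plb to 43.6 to 49.4 CPM in KO E2. That call was kept in 8 of 20 alternatives. With the clock index as a covariate it was -0.24 (adjusted p = 0.339), and without the 3 clock libraries -0.26 (adjusted p = 0.571). Nfkb1, an NF-kappaB subunit gene, rose in KO under estradiol by 0.26 (SE 0.06, adjusted p = 0.0189), a call kept in 18 of 20. No other regulator was called in any of the 6 comparisons.

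Mmp11, or stromelysin 3, is a stromal enzyme that cuts serpins rather than most matrix proteins. It was at 22.2 and 17.5 CPM in WT Plb, 14.8, 15.1 and 15 in WT E2, 20.2, 19.5 and 17.5 in KO Plb and 15.02, 17.4 and 16.2 in KO E2. In each genotype all placebo libraries were above all estradiol libraries, although KO Plb 3 (17.46 CPM) and KO E2 2 (17.45 CPM) were almost level. How many of all genes separate in this way was not counted. The estradiol difference was -0.41 in WT (SE 0.13, adjusted p = 0.145) and -0.23 in KO (SE 0.11, adjusted p = 0.333), neither of them called. Mmp11 was also higher in the 3 clock libraries (19.5 to 22.2 CPM) than in the other 8 (14.8 to 17.5). With the clock index as a covariate the estradiol differences were -0.21 in WT (adjusted p = 0.507) and -0.04 in KO (adjusted p = 0.941), and without the 3 clock libraries they were -0.23 (adjusted p = 0.624) and -0.10 (adjusted p = 0.960). Sdc2 (0.279) and H2afy2 (0.280) were the genes most like it.

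Adamts5 encodes the aggrecanase chiefly responsible for aggrecan loss in mouse models of arthritis. It stood at 31.2 and 36.5 CPM in WT Plb, 75.4, 66.1 and 47.5 in WT E2, 35.2, 32.6 and 52.1 in KO Plb and 48.0, 46.3 and 41.0 in KO E2. The 3 WT E2 libraries were above both WT Plb libraries, whereas in KO the placebo and estradiol libraries overlapped. How many of all genes are apart in WT was not counted. The estradiol difference in WT was 0.90 (SE 0.23, unadjusted p = 0.0023, adjusted p = 0.0858), 1.86-fold and not called, and in KO it was 0.17 (95% interval -0.26 to 0.61). The difference between these effects was 0.72 (SE 0.30, adjusted p = 0.356). KO against WT gave 0.24 under placebo (-0.25 to 0.73) and -0.48 under estradiol (SE 0.19, adjusted p = 0.143).

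For Adamts5 the estradiol difference in WT was called by DESeq2 (adjusted p = 0.00307), without WT E2 3 (0.0393) and without KO Plb 3 (0.0276), and was 0.74 to 1.07 over the single libraries left out. With the clock index as a covariate it was 0.57 (adjusted p = 0.286), and without the 3 clock libraries 0.79 (adjusted p = 0.184). In KO the Adamts5 difference turned to -0.13 (adjusted p = 0.871) and -0.20 (adjusted p = 0.938) in these fits. Adamts5 was lower in the 3 clock libraries (31.2 to 35.2 CPM) than in the other 8 (36.5 to 75.4). The genes most like it were Fbxo8 (0.270) and Dhrs3 (0.310).

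Adamts4, the other main aggrecanase, was lowest in the 3 clock libraries. That set was chosen after the values were seen and holds placebo libraries only. Adamts4 was at 16.0 and 46.4 CPM in WT Plb, 47.1, 50.04 and 32.2 in WT E2, 17.97, 18.7 and 40.6 in KO Plb and 41.5, 39.9 and 41.3 in KO E2. The 3 low values, 16.0 to 18.7 CPM, were WT Plb 1, KO Plb 1 and KO Plb 2, and the other 8 libraries lay between 32.2 and 50.04 CPM. Estradiol against placebo gave 0.47 in WT (SE 0.49, adjusted p = 0.758) and 0.67 in KO (SE 0.43, adjusted p = 0.505). With the clock index as a covariate these turned to -0.27 (adjusted p = 0.493) and -0.17 (adjusted p = 0.754). Without the 3 clock libraries they were -0.11 (adjusted p = 0.894) and 0.02 (adjusted p = 0.999). Without WT Plb 1 alone the WT difference was -0.11, and without WT Plb 2 alone it was 1.42.

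Among all genes, Spon2 (0.235), a secreted matrix protein, and Npas2 (0.241), a clock transcription factor, were most like Adamts4. Npas2 is among the 8 genes of the clock index, which were chosen because they split the libraries. Its split, 4.19 to 6.71 CPM in the 3 clock libraries and 37.7 to 82.0 CPM in the other 8, follows from that choice. Timp3, the TIMP that binds the matrix and inhibits ADAMTS aggrecanases best, had the opposite split. It was at 1047 and 216 CPM in WT Plb, 252, 266 and 175 in WT E2, 1142, 1286 and 371 in KO Plb and 247, 303 and 233 in KO E2. The 3 clock libraries held 1047 to 1286 CPM of Timp3 and the other 8 held 175 to 371. Timp3 was called in 0 of the 6 comparisons by edgeR, and its estradiol difference in KO was -1.84 (SE 0.64, adjusted p = 0.203). That value became -0.30 with the clock index as a covariate (adjusted p = 0.732). Adamts4 and Adamts5 were the pair of members most like each other (0.677), with a ratio that spanned 2.49-fold.

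**Figure D4:**
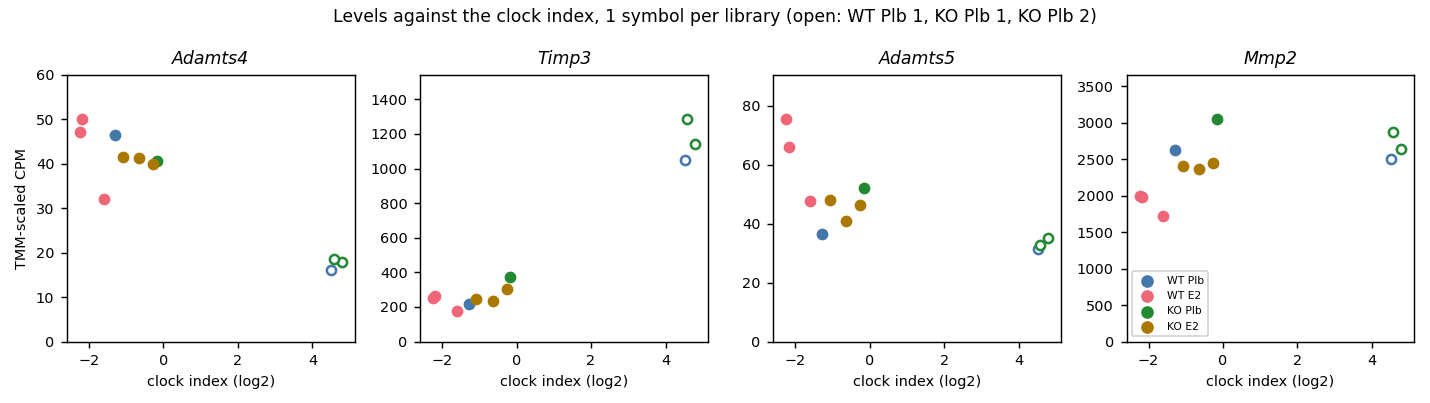
Adamts4, Timp3, Adamts5 and Mmp2 in TMM-scaled CPM against the clock index, the mean log2 CPM of 6 clock genes minus that of 2 others, with 1 symbol per library. WT Plb 1, KO Plb 1 and KO Plb 2 (open symbols) have an index of 4.51 to 4.79 and the other 8 libraries -2.24 to -0.168. Mmp2 overlaps between these sets and the other 3 genes do not, a split that was not counted over all genes.

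Adamts1, which cuts aggrecan weakly and versican well, was lower in KO. It stood at 40.1 and 39.5 CPM in WT Plb, 34.3, 41.6 and 28.1 in WT E2, 25.96, 23.9 and 32.7 in KO Plb and 26.2, 23.2 and 28.8 in KO E2. Every KO Plb library was below both WT Plb libraries, while under estradiol the genotypes overlapped at WT E2 3 (28.1) and KO E2 3 (28.8). How many of all genes are apart under placebo was not counted. Averaged over both agents Adamts1 fell in KO by 0.47 (SE 0.11, adjusted p = 0.0284, edgeR), or 1.39-fold. The separate differences were -0.53 under placebo (SE 0.17, adjusted p = 0.481) and -0.41 under estradiol (SE 0.15, adjusted p = 0.104). Estradiol against placebo gave -0.20 in WT (95% interval -0.56 to 0.16) and -0.08 in KO (-0.40 to 0.25). Those were -0.36 and -0.23 with the clock index as a covariate (adjusted p = 0.465 and 0.719) and -0.19 and -0.32 without the 3 clock libraries (adjusted p = 0.781 and 0.801).

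The Adamts1 call was kept in 12 of 20 alternatives, all with the same sign. It was lost without any 1 of WT Plb 2, WT E2 1, KO Plb 1, KO Plb 2 or KO E2 2 (adjusted p = 0.0523 to 0.0833) and with the clock index as a covariate (0.0531). Without the 3 clock libraries the difference was -0.35 (adjusted p = 0.201). Cartilage cell markers, 0 of 7 called, summed to 11190 and 19930 CPM in WT Plb, 11960 to 21330 in WT E2, 7440 to 10540 in KO Plb and 7446 to 15690 in KO E2. The sum was thus lower in KO under placebo, where Col2a1 alone held 7224 and 13540 CPM in WT Plb and 3706 to 6317 in KO Plb. All 7 log2 differences were below 0 there, with 0 called. Acan, Sox9, Hapln1, Col9a1 and Col11a1 overlapped between those groups. Of 7 hypertrophic and osteoblast markers, 3 (Ibsp, Col10a1 and Ihh) were called lower in KO averaged over both agents, with sums of 8288 to 10050 CPM in WT Plb, 10660 to 12490 in WT E2, 7192 to 7423 in KO Plb and 6200 to 7234 in KO E2. Of 7 endothelial markers, 2 (Emcn and Egfl7) were called lower. In the same average 5 of 7 osteoclast markers and 5 of 8 macrophage markers were also called lower. Markers of the fibrous layer, neutrophils, muscle, adipocytes and erythroid cells had 0 calls there. The part of any of these cell types in the Adamts1 difference was not tested. The genes most like Adamts1 were Prkcsh (0.391) and Snap47 (0.408).

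Of the other 17 Mmp genes listed, 10 were tested, and calls came from the comparisons of genotypes. Under estradiol Mmp15, a membrane-bound relative of Mmp14, fell in KO by 0.45 (SE 0.10, adjusted p = 0.0157). Mmp23 fell by 0.39 (adjusted p = 0.0168) and Mmp12, the macrophage elastase, by 0.96 (adjusted p = 0.0287). Mmp25, the membrane-bound enzyme of leukocytes, rose by 2.48 (SE 0.68, adjusted p = 0.0435), from 0.868 to 1.47 CPM in WT E2 to 2.29 to 11.6 CPM in KO E2, in the libraries with the high neutrophil sums. Averaged over both agents Mmp12 fell by 0.99 (adjusted p = 0.00945) and Mmp23 by 0.24 (adjusted p = 0.0464). Mmp13 and Mmp9, the most abundant relatives, were not called in any comparison. Under estradiol Mmp9 gave -0.32 (SE 0.12, adjusted p = 0.106) and Mmp13 0.03 (95% interval -0.34 to 0.39).

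Of the other 16 Adamts genes, 13 were tested. Adamts17 fell in KO under estradiol by 0.77 (SE 0.17, adjusted p = 0.0141), and Adamts15, another aggrecanase, by 0.65 (SE 0.18, adjusted p = 0.0329). Adamts15 was at 14.5 to 19.6 CPM in WT E2 and 9.73 to 12.4 CPM in KO E2. Adamts9, also able to cut aggrecan and versican, rose in KO averaged over both agents by 0.36 (SE 0.10, adjusted p = 0.0430). The members and these relatives were therefore called in both directions between genotypes. Median log2 differences under estradiol were 0.10 over the 8 members, -0.26 over the 10 other Mmp genes and 0.04 over the 13 other Adamts genes, beside 0.00 over all genes tested.

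A2m, the plasma-type inhibitor that traps proteases of all classes, differed most of the 6 inhibitor genes listed, 5 of which were tested. It stood at 23.3 to 28.9 CPM in WT Plb, 129 to 215 in WT E2, 2.55 to 3.34 in KO Plb and 1.96 to 2.99 in KO E2. A2m rose with estradiol in WT by 2.70 (SE 0.22, adjusted p = 0.000109), gave -0.22 in KO (adjusted p = 0.748), and differed between those effects by 2.92 (SE 0.33, adjusted p = 0.00177). It was the 1 gene called for KO against WT under placebo, where it fell by 3.19 (SE 0.23, adjusted p = 0.000352). Without the 3 clock libraries the A2m differences were of the same size, but the call under placebo (-3.20, adjusted p = 0.0662) and that of the interaction (2.92, adjusted p = 0.0635) were lost. Timp1 fell in KO under estradiol by 0.37 (SE 0.09, adjusted p = 0.0224) and averaged over both agents by 0.31 (adjusted p = 0.0191), opposite in sign to Timp2.

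Of 9 genes of protease activation, 8 were tested. Pcsk6, a proprotein convertase, fell in KO under estradiol by 0.40 (SE 0.11, adjusted p = 0.0391), and Plau, the urokinase that makes plasmin, fell in KO averaged over both agents by 0.50 (SE 0.13, adjusted p = 0.0354). Of 13 matrix substrates, all tested, Lum, the keratan sulfate proteoglycan lumican, fell with estradiol in WT by 0.50 (SE 0.11, adjusted p = 0.0397). Vcan, the gene of versican and a substrate of ADAMTS1, rose in KO by 1.21 under estradiol (SE 0.15, adjusted p = 0.000578) and by 0.87 averaged over both agents (adjusted p = 0.00151). Vcan was at 65.3 to 97.1 CPM in WT E2 and 185 to 218 CPM in KO E2. Dcn, the collagen-binding proteoglycan decorin, rose in KO under estradiol by 0.45 (SE 0.09, adjusted p = 0.00708). Acan, the substrate of the aggrecanases, gave 0.08 for estradiol in WT (95% interval -0.64 to 0.80) and -0.35 for KO under estradiol (-1 to 0.29), neither called. Col2a1 gave -0.88 in KO averaged over both agents (SE 0.29, adjusted p = 0.0948).

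Single libraries decided several calls of these genes under estradiol. Without KO E2 2, Mmp15 (adjusted p = 0.0615), Mmp23 (0.0775), Mmp12 (0.0982), Adamts15 (0.124), Timp2 (0.0809), Pcsk6 (0.134) and Nfkb1 (0.0717) were no longer called. Mmp25 was called in 9 of 20 alternatives and reached an adjusted p of 0.149 without WT E2 3. Vcan, Dcn and A2m kept their calls there in 20 of 20. Averaged over both agents, Mmp23 was called in 5 of 20 alternatives, Adamts9 in 9 and Plau in 10, and Lum for estradiol in WT was called in 10 of 20. Lum gave -0.49 (adjusted p = 0.128) with the clock index as a covariate and -0.58 (adjusted p = 0.123) without the 3 clock libraries.

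The authors' deposited tables compare pairs of groups and share groups with one another. For WT E2 against WT Plb, the authors' deposited table lists 2 members with an adjusted p-value under 0.05, among 497 of 14859 genes. These are Mmp2 in the authors' deposited table at -0.44 (SE 0.12, adjusted p = 0.00972) and Adamts5 at 0.87 (SE 0.21, adjusted p = 0.00173). For KO E2 against KO Plb, the authors' deposited table lists Mmp2 at -0.24 (adjusted p = 0.0211), 1 member among 1074 of 14287 genes. For KO E2 against WT E2, the authors' deposited table lists 3 members among 1959 of 15044 genes: Mmp2 at 0.34, Mmp8 at 2.91 and Adamts5 at -0.48. For KO Plb against WT Plb, the authors' deposited table lists 0 members among 36 of 14966 genes. The other authors' deposited tables change genotype and agent together, which was not fitted here. For KO E2 against WT Plb, the authors' deposited table lists 1 member among 622 of 14095 genes, Adamts1 at -0.61 (adjusted p = 0.00337). For KO Plb against WT E2, the authors' deposited table lists 2 members among 2133 of 15064 genes, Mmp2 at 0.59 and Adamts5 at -0.64. The log2 fold changes of Mmp2 and Adamts5 in the authors' deposited tables lie close to those fitted here, whereas the adjusted p-values in the authors' deposited tables are smaller, and Mmp8 at 2.91 there stands against 5.85 here.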

How the data were processed

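Poly-A RNA libraries from condylar fibrocartilage were grouped by genotype and agent from the sample labels. The mouse build mm9, TopHat and bcl2fastq 2.17 are named, per the submitters' processing notes. No source used here gives the counting program, its annotation or its use of strand, so overlapping and near-identical genes are uncertain. The authors deposited raw whole-number counts for 23420 symbols, with 0 columns unmapped, and pairwise tables with log2 fold changes and adjusted p-values, per the file headers.

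In R 4.3.3, edgeR 4.0.16 kept 14531 genes (filterByExpr, minimum count 10, total 15; 99.98% of counts). TMM scaling and a robust quasi-likelihood fit to the 4 groups over 11 libraries followed, with 7 residual degrees of freedom and Benjamini-Hochberg adjustment over all genes tested for each of 6 comparisons. SE is the absolute log2 difference divided by the square root of F. Alternatives used limma 3.58.1 (voom), DESeq2 1.42.0, other scaling, no filter, the replicate block and libraries left out. In KO the 3 same-numbered pairs of placebo and estradiol libraries had correlated deviations from their group means (0.142 to 0.386, against -0.331 to 0.0373 for the 6 other pairs). Deviations from a group mean cancel within the group, so higher values in same-numbered pairs force lower ones in the other pairs. The ranges are therefore not independent and do not establish a pairing, which the labels do not state. The block is given beside that comparison as an alternative. Scripts were tested on simulated data. No 2 libraries of a group matched within sampling noise.

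The members, gene lists and the joint removal of WT Plb 2 and KO Plb 1 were chosen with earlier results of these data known. The 2 clock settings were added after seeing the data. Named were all members, up to 4 called genes per list and comparison, the 8 genes Mmp9, Mmp13, Timp1, Timp2, Timp3, A2m, Acan and Col2a1, and for each tested member the 2 genes most like it (mean CPM of at least 5).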

Additional observations from a re-analysis of the deposited data

How the results depend on the processing

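Each of the 8 tested members was recomputed in 6 comparisons under 20 alternatives, 960 values in all. Of these, 856 kept their direction and their side of the threshold, 30 kept the direction and lost a call, 13 gained one and 61 changed sign. The sign changes came from members that were not called in that comparison, and the causes were not tested. A lone sample left in WT Plb or KO Plb was assumed to vary like the other groups. Outside the KO groups compared with each other, same-number deviations from the group means were correlated in both directions. The values were -0.203 and -0.159 between the WT groups and 0.0505 to 0.0854 between WT E2 and KO E2. Between WT E2 and KO Plb they were 0.0504 to 0.132. WT Plb gave 0.0829 and 0.198 with KO Plb and 0.0978 and 0.135 with KO E2. The labels state no pairing, and these values do not settle one. Depth limited Mmp10 and the low Mmp8 values, and the 2 WT Plb libraries limited every comparison that used them.

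Genes called for estradiol in WT (225) numbered 656 with DESeq2 and 141 with limma-voom, and 113 to 285 with 1 library left out. Those for estradiol in KO (396) numbered 952 with DESeq2, 629 with the replicate block, 134 without WT Plb 2 and KO Plb 1, 19 with the clock index as a covariate and 1 without the 3 clock libraries. With 1 library left out they ranged from 105 (without KO Plb 1) to 505. Interaction genes (167) numbered 561 with DESeq2, 69 with limma-voom, 301 with the replicate block, 56 without WT Plb 2 and KO Plb 1 and 96 without the 3 clock libraries, and 68 to 270 with 1 library left out. KO against WT under placebo (1) called 36 with DESeq2, 17 with the replicate block and 12 without the 3 clock libraries, and 1 to 50 with 1 library left out. Under estradiol (1667) the range with 1 library left out was 867 (without KO E2 2) to 1850. Averaged over both agents (1069) DESeq2 called 1937, and 312 were called without the 3 clock libraries and 265 without WT Plb 2 and KO Plb 1, with 408 (without WT Plb 2) to 1711 (without WT Plb 1) when 1 library was left out.

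Members called for estradiol in WT (0) numbered 2 with DESeq2, 1 with RLE size factors, 1 without Rn45s and 0 to 1 with 1 library left out. For estradiol in KO (0) DESeq2 called 1. Under estradiol, KO against WT (1) called 2 with DESeq2, 2 with the replicate block and 0 to 2 with 1 library left out. Averaged over both agents (2) the number was 1 with no filter, 1 with the clock index as a covariate, 0 without the 3 clock libraries, 0 without WT Plb 2 and KO Plb 1, and 0 to 1 with 1 library left out.

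Signs turned as follows, in log2 differences. Without the 3 clock libraries, Adamts1 gave 0.13 for the interaction, Adamts4 -0.11 for estradiol in WT, Adamts5 -0.20 for estradiol in KO and 0.0091 for the genotype average, Mmp14 -0.18 for estradiol in KO and Mmp3 -0.18 for estradiol in KO. With the clock index as a covariate, Adamts4 gave -0.27 and -0.17 for estradiol in WT and KO, and 0.17, 0.28 and 0.23 for KO against WT under placebo, under estradiol and averaged. In the same fit Adamts5 gave -0.13, Mmp14 -0.22 and Mmp3 -0.30 for estradiol in KO, Mmp3 0.17 for KO under placebo, Mmp11 -0.038 and Mmp14 0.085 for the genotype average.

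Without WT Plb 2 and KO Plb 1, Adamts4 gave 0.96 for the interaction, 0.89 for KO under placebo and 0.41 for the genotype average. Mmp14 gave 0.062 and -0.032 for estradiol in WT and KO, 0.094 for the interaction, 0.18 for KO under placebo and 0.13 for the average. Mmp3 gave 0.47 for estradiol in WT, 0.39 for the interaction and 0.58 for KO under placebo. Mmp11 gave -0.073 for the average and Mmp8 0.37 for KO under placebo. Mmp3 also turned to 0.073 for estradiol in WT with limma-voom and to -0.037 for the average with the replicate block. The replicate block changed no other sign, and beside the values given above it changed 1 call of a member, Mmp8 for KO against WT under estradiol (6.00, adjusted p = 0.0377).

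With 1 library left out, Adamts1 ranged from -0.17 to 0.060 for estradiol in KO and -0.27 to 0.0060 for the interaction. Adamts4 ranged from -0.11 to 1.42 for estradiol in WT, -0.77 to 0.76 for the interaction, -0.85 to 0.68 for KO under placebo, -0.25 to 0.044 under estradiol and -0.47 to 0.31 averaged. Mmp11 ranged from -0.34 to 0.010 for the interaction, -0.22 to 0.12 for KO under placebo and -0.049 to 0.12 averaged. Mmp14 ranged from -0.37 to 0.062 for estradiol in WT, -0.034 to 0.17 in KO, -0.41 to 0.012 for the interaction, -0.33 to 0.097 for KO under placebo, -0.0070 to 0.13 under estradiol and -0.13 to 0.091 averaged. Mmp3 ranged from -0.39 to 0.47 for estradiol in WT, -0.63 to 0.22 for the interaction, -0.45 to 0.41 for KO under placebo, -0.012 to 0.46 under estradiol and -0.13 to 0.30 averaged. Mmp8 ranged from -2.98 to 0.092 for KO under placebo. The extremes of Adamts4, Mmp11 and Mmp3 in comparisons with WT Plb came from leaving out WT Plb 1 or WT Plb 2.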
